A study of Arabidopsis thaliana with 6 samples.

Results

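The MATE (multidrug and toxic compound extrusion) transporters of Arabidopsis thaliana were followed in seedlings of an actin mutant and of wild type. The family was taken as a list of 48 loci, and each locus was matched to probe sets through the platform annotation by gene identifier. Of the 48, 34 had a probe set annotated to that gene alone and are the measured members, out of 13356 genes measured in this way. A further 7 loci were covered only by 4 probe sets shared with another gene, and 7 had no probe set named here and were not analysed here. The list named AT3G23550 and AT1G71870 with earlier results of these data known, so the values of these loci are a description of chosen members.

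MATE proteins are membrane carriers that use a proton or sodium gradient to move small molecules out of the cytosol, into the vacuole or out of the cell. In plants the family is large and its known cargoes include flavonoids, citrate, hormones and their precursors, phenolic amides and foreign compounds. Many members in Arabidopsis stand in tandem rows in the genome, and for many no cargo is known.

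Total RNA of whole seedlings was hybridised to 6 ATH1 GeneChips of Affymetrix, with 3 biological replicates of each genotype per the labels. One group was actin2-5, also labelled wavy, a mutant of the vegetative actin gene ACT2. The other was wild type, for which alone the labels name the ecotype, Columbia. Both groups were harvested after 8 days on reduced-strength Murashige and Skoog medium, with no other treatment given, and actin2-5 is a single allele. The series concerns the actin cytoskeleton and its tie to auxin and brassinosteroid signals, and the genotypes are its only comparison.

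Values are log2 signals after RMA (robust multi-array average), which were deposited by the authors, and array medians lay between 6.42 and 6.46. Pairs of arrays correlated at 0.9938 or more within a genotype and at 0.9902 to 0.9947 across genotypes. The mutated gene ACT2 is not among the named probe sets and could not be used to check the labels. The 4 shoot and photosynthesis markers measured and the 2 root markers were bright on every array, as a whole seedling has both organs. Their list medians were 13.235 to 13.325 and 11.735 to 11.875 in wild type. In actin2-5 these medians were 13.24 to 13.265 and 11.645 to 11.725, and 0 of these 6 genes were called by limma (1 had an unadjusted p under 0.05). That gene was the root marker NAI2, at -0.27 ± 0.11 (SE, actin2-5 minus wild type; unadjusted p = 0.0292, limma adjusted p = 0.255). The other root marker, PYK10, was at 0.09 ± 0.08, so the root median pools changes of opposite sign. Signal for 25S ribosomal RNA, taken from a control probe set, was uneven among the mutant arrays, at 10.63 on array 1, 7.75 on array 2 and 9.82 on array 3, against 8.13 to 8.21 in wild type.

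A locus was called when its limma p, adjusted by Benjamini-Hochberg over all 22746 probe sets, was under 0.05. Each change is given as the mean log2 signal of actin2-5 minus that of wild type. By this rule 2 of the 34 measured MATE loci were called (5.88%), AT3G23550 higher and AT1G71870 lower, against 2.74% of all 13356 genes, of which 1.75% were higher and 0.988% lower. Both called loci were named in the list with their change known, so nothing is read from that share. The other 32 loci lay between -0.43 and 0.41.

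AT3G23550, whose product is known to export hydroxycinnamic acid amides, phenolic compounds made in defence, rose in actin2-5. Its signal was 7.77, 8.30 and 8.37 on actin2-5 arrays 1, 2 and 3 and 6.31, 6.10 and 6.59 on wild-type arrays 1, 2 and 3. All 3 mutant arrays stood above all 3 wild-type arrays, and the nearest arrays of the groups were 1.18 apart. The means were 8.15 ± 0.33 and 6.33 ± 0.25 (SD, n = 3), a change of 1.81 ± 0.17 (SE) or 3.51-fold, with a limma adjusted p of 0.000337. The 95% interval of the change was 1.44 to 2.18. Among all genes measured, 5 had a change as high or higher, this one included.

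AT1G71870, a MATE gene with no cargo named here, fell in actin2-5. It read 6.42, 5.76 and 5.97 on actin2-5 arrays 1, 2 and 3 and 7.06, 7.21 and 6.92 in wild type. The groups did not overlap, with a gap of 0.50 between the nearest arrays, and actin2-5 array 1 was the closest of the mutant arrays to wild type. The means were 6.05 ± 0.34 and 7.06 ± 0.15 (SD, n = 3), a change of -1.01 ± 0.15 (SE), so that wild type was 2.02-fold higher (limma adjusted p = 0.00565). The 95% interval was -1.35 to -0.67. Of all genes measured, 10 had a change as low or lower, this one included.

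For both loci the 25S control signal moved with the arrays in part. Actin2-5 array 1, with the highest 25S signal, held the mutant value closest to wild type for each of them. With 25S signal as a covariate both stayed called, at 1.98 ± 0.20 and -1.26 ± 0.14 (SE; limma adjusted p = 0.00177 and 0.00353). On actin2-5 array 2 alone, where 25S was below wild type, the changes were 1.97 and -1.30. As 25S was nearly even in wild type, the covariate was fitted mainly on the 3 mutant arrays. These 2 checks are thus not independent of each other. In these bulk samples fewer cells that express a gene and less RNA per cell cannot be told apart. Of 7 root hair marker genes listed, 2 were measured, and both fell: EXPA7 by 0.86 ± 0.14 and EXPA18 by 0.95 ± 0.15 (SE; limma adjusted p = 0.00909 and 0.00636). EXPA7 lost its call without actin2-5 replicate 2 or 3, at changes of -0.86 and -0.815 (limma adjusted p = 0.0545 and 0.0576). With the 25S covariate both markers lost their call at changes of -0.87 and -0.95 (limma adjusted p = 0.0769 and 0.062), as SEs grew to 0.19 and 0.195. On actin2-5 array 2 alone they were at -0.85 and -0.94, also uncalled (limma adjusted p = 0.394 and 0.356). The array medians of these 2 markers were 6.465 to 6.58 in actin2-5 and 7.055 to 7.695 in wild type. Their part in the fall of AT1G71870 was not tested.

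**Figure D1:**
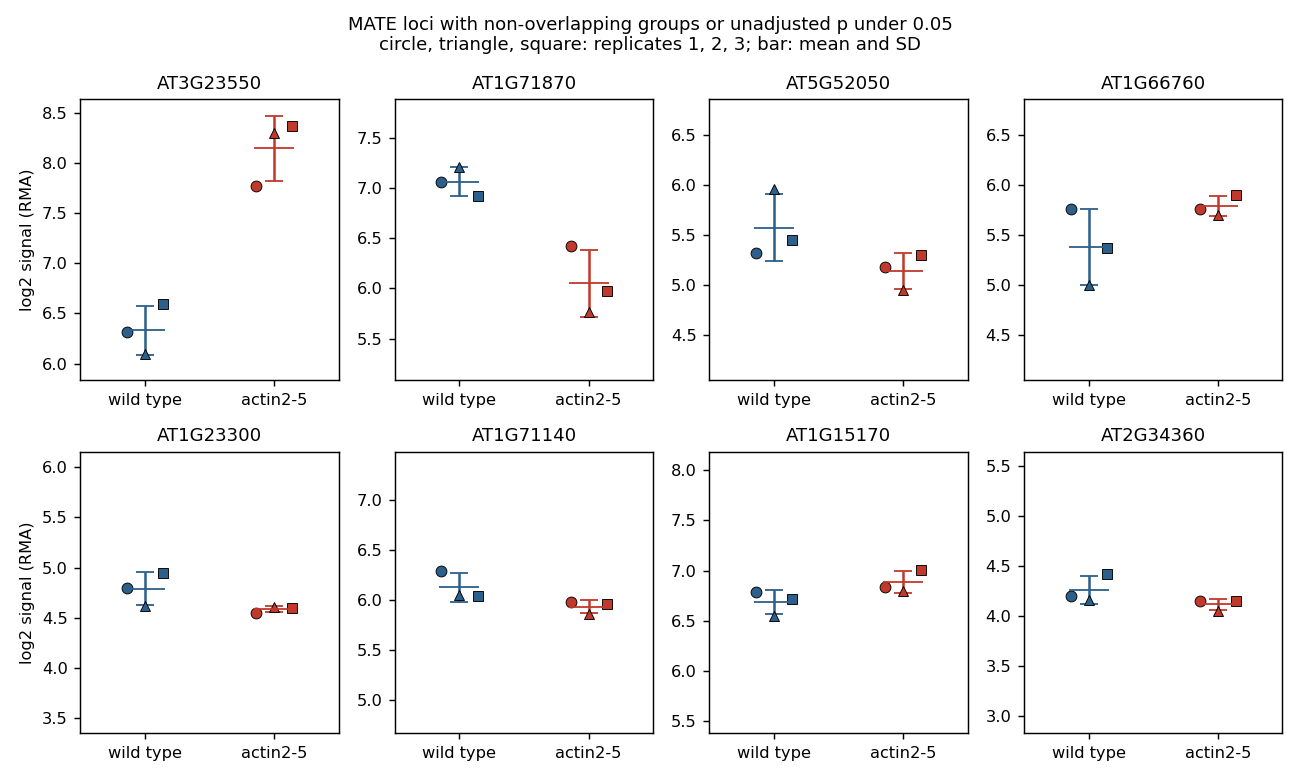
Log2 signal on each array (vertical axes, each spanning the same range of log2 units) of the 8 MATE loci whose groups did not overlap or whose unadjusted p was under 0.05, with wild type in blue and actin2-5 in red. Points are arrays and bars are the mean and SD of 3 arrays. AT3G23550 at 7.77 to 8.37 against 6.10 to 6.59 and AT1G71870 at 5.76 to 6.42 against 6.92 to 7.21 are separated by wide gaps, while the other panels show small shifts.

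Among the members with a known cargo or role, the largest uncalled shift was in AT5G52050 (DTX50), an exporter of abscisic acid. It read 5.18, 4.95 and 5.30 in actin2-5 and 5.32, 5.96 and 5.45 in wild type. The groups did not overlap, but only by 0.02, between actin2-5 array 3 and wild-type array 1. The change was -0.43 ± 0.16 (SE, n = 3 per group; unadjusted p = 0.0202, limma adjusted p = 0.21), so it was not called. Without wild-type replicate 2, the highest array, it was -0.24 ± 0.11 (SE; limma adjusted p = 0.363).

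AT5G38030, reported to act in auxin levels and root growth, read 8.32, 8.45 and 8.41 in actin2-5 and 8.66, 9.06 and 8.37 in wild type. The groups overlapped because wild-type array 3 was low, and the spread was wider in wild type (SD 0.35 against 0.07). The change was -0.30 ± 0.15 (limma adjusted p = 0.376). It was -0.12 without wild-type replicate 2, the highest array, and -0.47 without wild-type replicate 3, uncalled in both. AT1G47530 (DTX33), a chloride channel of the vacuole membrane, read 9.48, 9.22 and 9.14 in actin2-5 and 9.27, 9.23 and 9.31 in wild type. Its mean was at 0.01 ± 0.10, with a 95% interval of -0.21 to 0.23, so a change of 1.5-fold lies outside that interval. AT4G22790 (RHC1), which acts in the closing of stomata at high carbon dioxide, was at 0.12 ± 0.10, from 6.17 ± 0.17 to 6.29 ± 0.02 (SD, n = 3).

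AT1G66760, with no role named here, had the largest uncalled increase. It read 5.76, 5.70 and 5.90 in actin2-5 and 5.76, 5.00 and 5.37 in wild type. Wild-type array 1 equalled actin2-5 array 1, and the other wild-type arrays were lower than all mutant arrays. The change was 0.41 ± 0.16 (SE; unadjusted p = 0.0289, limma adjusted p = 0.254). Without wild-type replicate 1 it was called, at 0.60 ± 0.12 (limma adjusted p = 0.033), so that array decides the call. Without wild-type replicate 2, the lowest array, the change was 0.22 ± 0.12 (limma adjusted p = 0.461). AT1G66780, a MATE locus that lies near it, was dim and at -0.14 ± 0.12.

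In all, 7 of the 34 loci had groups that did not overlap (20.6%), against 18.0% of all genes measured. Of these, 2 were higher in actin2-5 and 5 lower, against 7.18% and 10.8% of all genes. The share of members is thus near that of the background. Beside the 3 loci described above, AT1G15170 read 6.84, 6.80 and 7.01 in actin2-5 and 6.79, 6.55 and 6.72 in wild type, with its nearest arrays 0.01 apart. AT1G71140 read 5.98, 5.86 and 5.96 in actin2-5 and 6.29, 6.05 and 6.04 in wild type. AT1G23300 read 4.55, 4.61 and 4.6 in actin2-5 and 4.80, 4.62 and 4.95 in wild type. All 3 were uncalled, with changes of 0.20 ± 0.10, -0.19 ± 0.09 and -0.20 ± 0.10 (SE; limma adjusted p = 0.378, 0.374 and 0.361). AT2G34360 read 4.15, 4.05 and 4.15 in actin2-5 and 4.20, 4.16 and 4.42 in wild type, and its change of -0.14 ± 0.09 was not called either.

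At an unadjusted p under 0.05 stood 4 of the 34 loci (11.8%), against 14.1% of all genes measured. The median change over the members was -0.05, and over all genes it was -0.03. A mean above wild type was seen in 13 members (38.2%), against 39.3% of all genes. The median size of the change, without its sign, was 0.14 in the members and 0.09 in all genes. The median size was thus somewhat larger in the members, while the direction was split in about the same way. The members also had a larger median SE, 0.1005 against 0.0964 in all genes, and held the 2 loci listed with their change known. Signal was not matched here, so no larger response of the family is read from the median size.

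**Figure D2:**
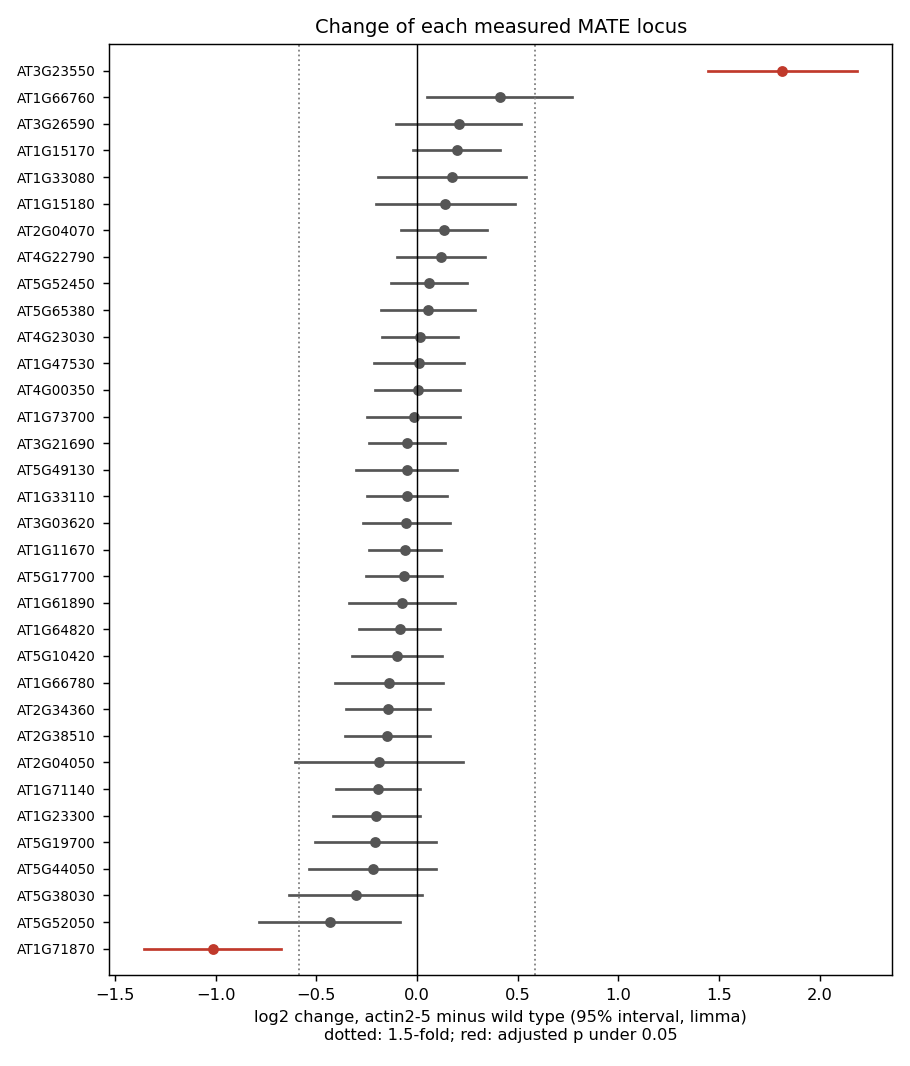
Log2 change, actin2-5 minus wild type (horizontal axis), of each of the 34 measured MATE loci, sorted by change, with its 95% limma interval. The 2 called loci, in red, are AT3G23550 at 1.81 and AT1G71870 at -1.01, and the other 32 lie between -0.43 and 0.41, most with intervals inside the dotted lines at 1.5-fold.

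For 28 of the 32 uncalled loci the 95% interval of the change lay inside 1.5-fold in both directions, before any adjustment for the number of loci. For the other 4, which were AT5G52050, AT1G66760, AT5G38030 and AT2G04050, the interval reached past 1.5-fold in one direction. The intervals of AT5G52050 (-0.78 to -0.08) and AT1G66760 (0.05 to 0.77) left out no change, while those of AT5G38030 and AT2G04050 included it. AT2G04050 was spread most, reading 4.71, 4.43 and 4.95 in actin2-5 and 4.72, 4.6 and 5.34 in wild type, and its change was -0.19 ± 0.19. RMA pulls weak signals together, so intervals of dim loci may be too narrow around no change.

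Signals of different probe sets do not compare as transcript amounts, so levels are given only by signal class. The classes were cut at the quartiles of all array values, 4.53, 6.44 and 8.13. Member means ran from 3.95 to 10.33, with 9 loci in the dimmest class, 11 in the second, 6 in the third and 8 in the brightest. Of all genes measured, 30.2%, 25.5%, 24.2% and 20.1% fell in these classes. The members were thus spread over the whole range of signals, as other genes were.

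The 8 loci of the brightest class include AT5G38030 and AT1G47530, described above. AT5G65380 read 10.57, 10.28 and 10.22 in actin2-5 and 10.22, 10.32 and 10.37 in wild type. AT3G21690 read 9.72, 9.59 and 9.58 in actin2-5 and 9.66, 9.76 and 9.62 in wild type. AT1G61890 read 9.0, 8.80 and 8.72 in actin2-5 and 8.94, 9.11 and 8.70 in wild type. In these 3 loci the mutant and wild-type arrays lay across each other, and the changes were 0.05 ± 0.11, -0.05 ± 0.09 and -0.08 ± 0.12 (SE). AT1G11670 read 8.62, 8.54 and 8.49 in actin2-5 and 8.58, 8.64 and 8.61 in wild type. AT1G33110 read 8.42, 8.58 and 8.52 in actin2-5 and 8.44, 8.58 and 8.65 in wild type. AT5G52450 read 8.54, 8.41 and 8.42 in actin2-5 and 8.33, 8.48 and 8.38 in wild type. The groups overlapped here too, with changes of -0.06 ± 0.08, -0.05 ± 0.09 and 0.06 ± 0.08. No locus of the brightest class was called (limma adjusted p from 0.376 to 0.977), and 0 had an unadjusted p under 0.05.

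**Figure D3:**
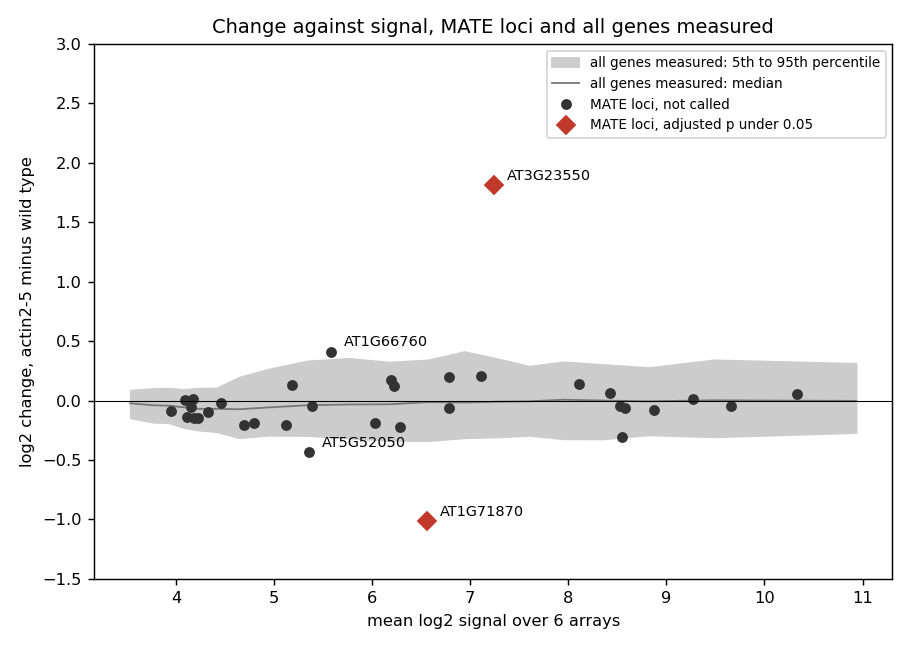
Log2 change (vertical axis) against the mean log2 signal over 6 arrays (horizontal axis) of the 34 MATE loci, over a grey band that holds the 5th to 95th percentile of all genes measured, in 20 bins of equal size by signal. Of the members, 30 lie inside the band of their bin, AT3G23550 and AT1G66760 lie above it and AT1G71870 and AT5G52050 below it. By construction about 5% of the genes in each bin lie above the band and about 5% below it.

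Set against genes of like signal, 30 of the 34 loci had a change between the 5th and the 95th percentile of their bin. AT3G23550 and AT1G66760 lay above the 95th percentile, and AT1G71870 and AT5G52050 lay below the 5th. By construction about 5% of the genes in each bin lie beyond each of these limits. The members outside, 2 above and 2 below, are thus near the share of all genes. Of them, AT3G23550 and AT1G71870 were listed with their change known. AT1G71870 had the lowest change of the 668 genes in its bin, and AT3G23550 was higher than 99.7% of the 668 in its own.

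In the third class, beside AT3G23550, AT1G71870 and AT1G15170, stood AT3G26590 at 0.21 ± 0.14, AT1G15180 at 0.14 ± 0.16 and AT5G17700 at -0.07 ± 0.08 (SE). AT3G26590 had a second probe set, which was dim at a wild-type mean of 4.50 ± 0.07 (SD, n = 3) and at -0.02 ± 0.08, so the probe sets differed in signal and neither was called. In the second class the remaining loci were AT5G44050 at -0.22 ± 0.14, AT5G19700 at -0.21 ± 0.14, AT1G33080 at 0.17 ± 0.17, AT2G04070 at 0.13 ± 0.10 and AT5G49130 at -0.05 ± 0.11.

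The 9 loci of the dimmest class lay between -0.15 and 0.02. AT2G38510 was at -0.15, AT2G34360 at -0.14, AT1G66780 at -0.14, AT5G10420 at -0.10, AT1G64820 at -0.09 and AT3G03620 at -0.05. AT1G73700 was at -0.02, AT4G23030 at 0.02 and AT4G00350 at 0.0033. These loci may be at background in seedlings, since no detection calls were used here, and a missing call on them says little about a change.

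Replicates of the members spread more in wild type than in actin2-5, as those of other genes did. The median SD was 0.143 in wild type and 0.103 in actin2-5, and over all genes measured it was 0.122 and 0.085. In 20 of the 34 members (58.8%) the wild-type SD was the larger, against 66.0% of all genes. The called loci ran the other way, with SDs of 0.33 and 0.34 in actin2-5 and 0.25 and 0.15 in wild type.

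By the order of protein-coding genes in RefSeq's TAIR10.1 table, 15 of the 48 loci stand directly beside another listed locus, in 6 rows on chromosomes 1, 2 and 3. An unlisted gene between listed loci ends a row, so the rows depend on the list. Of those 15 loci, 6 were measured. AT3G23550 stands beside AT3G23560 (ALF5), which is known for protecting roots from toxic compounds and has no probe set named here, and AT1G71870 has no listed neighbour. Whether the neighbour of the induced locus moved with it was thus not analysed here. In only 1 row were both neighbours measured: AT1G15170 and AT1G15180, at 0.20 ± 0.10 and 0.14 ± 0.16 (SE), neither called.

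The 4 shared probe sets read rows of close relatives whose signals cannot be told apart. The probe set shared by AT2G04080 and AT2G04066 read 6.02, 6.02 and 5.69 in actin2-5 and 5.75, 5.53 and 5.46 in wild type. Its groups overlapped through actin2-5 array 3 and wild-type array 1, and its change was 0.33 ± 0.12 (SE; unadjusted p = 0.0172, limma adjusted p = 0.192). The probe set of AT2G04100 and AT2G04090 was at -0.09 ± 0.10, that of AT1G15160 and AT1G15150 at 0.06 ± 0.11 and that of AT1G33100 and AT1G33090, dim at a wild-type mean of 3.99 ± 0.06 (SD, n = 3), at 0.03 ± 0.08. None of these 4 was called by limma, and the first alone had an unadjusted p under 0.05.

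Outside the list, 8 other MATE loci were looked up, and 4 were measured. AT1G51340, a citrate exporter of roots, was at -0.10 ± 0.16, and AT2G21340, a plastid relative of the salicylate transporter EDS5, was at -0.10 ± 0.10 (SE). AT2G38330 was at -0.09 ± 0.08 and AT4G38380 at -0.25 ± 0.11 (unadjusted p = 0.0473, limma adjusted p = 0.319). None of the 4 was called, and 1 had an unadjusted p under 0.05, against 14.1% of all genes measured. All 4 means were below wild type, with a median of -0.10. Over all genes measured the median was -0.03 and only 39.3% of means were above wild type, so little is read from these 4 loci.

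Few genes that serve the same routes have a probe set named here. Of 10 listed genes of the proanthocyanidin route, into which the MATE carrier TT12 feeds, 2 were measured. DFR, an enzyme of anthocyanin and proanthocyanidin synthesis, was at 0.52 ± 0.17, and BAN, the enzyme that makes epicatechin, was at -0.12 ± 0.09 (SE). Neither was called (limma adjusted p = 0.173 and 0.581), 1 had an unadjusted p under 0.05, and DFR was called without wild-type replicate 3, at 0.72 ± 0.14 (limma adjusted p = 0.036). Without wild-type replicate 2 DFR was at 0.31 ± 0.13 (limma adjusted p = 0.306). TT12 itself has no probe set named here. Of 6 listed genes for citrate, malate and aluminium response, AT4G00910 was measured, at 0.01 ± 0.09. For 25 listed ABC exporters and 5 listed genes of the carbon dioxide response of guard cells no probe set is named here. The 1 measured guard cell marker of 3 listed, FMA, was at -0.13 ± 0.11.

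**Figure D4:**
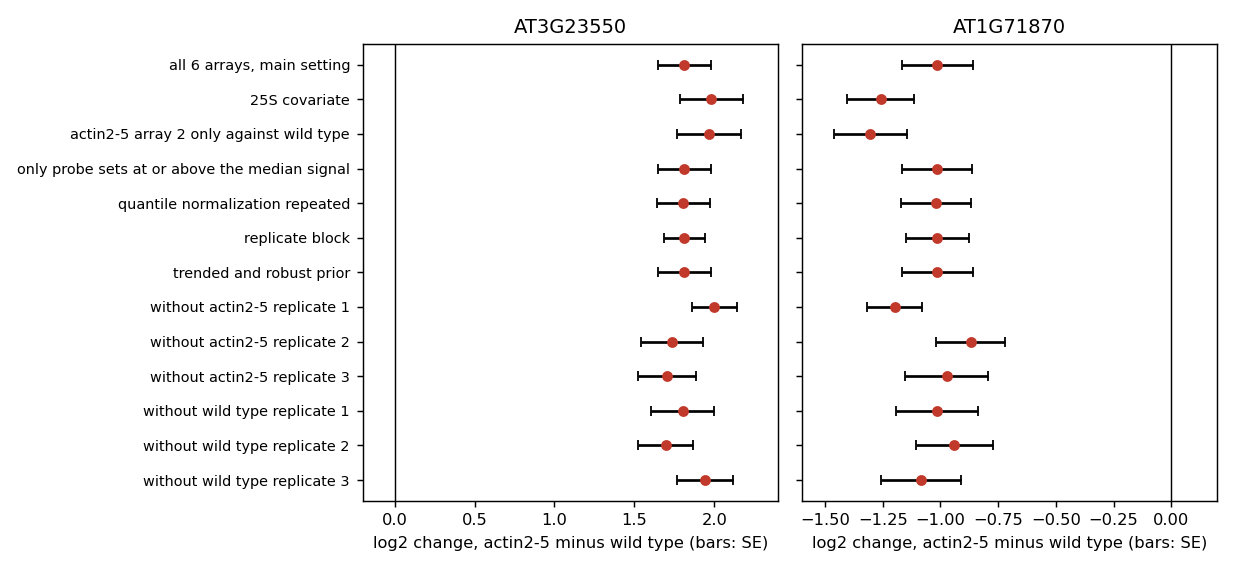
Log2 change, actin2-5 minus wild type, with its SE (horizontal axes) of AT3G23550 (left) and AT1G71870 (right) under the main setting and 12 alternatives (vertical axis). AT3G23550 ran from 1.697 to 2.002 and AT1G71870 from -1.30 to -0.87, and both were called in each.

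The 2 called loci kept their call under all 12 alternatives of array choice, normalization, filter and model that were run for them. AT3G23550 ran from 1.697 to 2.002 (limma adjusted p from 5.48e-05 to 0.0119). AT1G71870 ran from -1.30 to -0.87 (limma adjusted p from 0.00104 to 0.039), with the smallest change when actin2-5 replicate 2, its lowest array, was left out.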

How the data were processed

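The authors deposited log2 expression per probe set, made with RMA in the affy package, per the submitters' processing notes, which name no version. RMA brings arrays to a common distribution and understates changes of dim probe sets. The table held 22810 probe sets. The 64 control probe sets were left out of the tests. Of the 22746 tested, 13513 have 1 gene in the platform annotation, 503 several and 8730 are not listed there. Genes were named by identifier through RefSeq's TAIR10.1 table (13436 matched), whose chromosomes and start positions also gave the gene order. Where a gene had several single-gene probe sets, the brightest by mean stood for it.

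The lmFit and eBayes functions of limma 3.58.1 (R 4.3.3) were run on all probe sets, two-sided and with Benjamini-Hochberg adjustment, on 3 arrays per group, whose number limits the precision. The fit was tested on simulated data with known changes. That simulation drew noise independently for each array, with the same SD in both groups. It therefore did not test the wider wild-type spread or the uneven mutant arrays. All measured listed loci are named. Values on every array are given for AT3G23550, AT1G71870, loci with an unadjusted p under 0.05 or groups that do not overlap, and loci of the brightest class; the values of AT2G04050 and of a shared probe set were added after they were seen. The members and gene lists were chosen with earlier results of these data known. A planned test of called loci against tandem neighbours was not run, as no such neighbour has a probe set named here. Plots were made in Python 3.11.15 (matplotlib 3.10.9).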

Additional observations from a re-analysis of the deposited data

How the results depend on the processing

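Each alternative changed 1 choice. The MATE loci called numbered 2 in every alternative but 1; without wild-type replicate 1 they were 3, with AT1G66760 added at 0.60. Leaving out 1 array gave 2 to 3 loci called, and 290 to 896 of all probe sets against 750 (290 without actin2-5 replicate 2 and 307 without replicate 3). With the 25S covariate 283 probe sets passed, and with actin2-5 array 2 only against wild type, added after the data were seen, 103 passed; fewer degrees of freedom or arrays are part of both by construction, and the lone mutant array is assumed to vary like wild type. With the replicate block 907 probe sets and 2 MATE loci were called, AT3G23550 at 1.81 (limma adjusted p = 5.48e-05) and AT1G71870 at -1.01 (limma adjusted p = 0.00236). Deviations of same-numbered arrays correlated at 0.0619, 0.0866 and 0.0833, low but all positive, and differently numbered arrays were not compared as a baseline. Whether same-numbered samples share more than a number was thus not settled, and the main fit takes them as unpaired. In the proanthocyanidin list 0 genes were called, and 1, DFR, without wild-type replicate 3. With only probe sets at or above the median signal, 14 MATE loci were left to test.

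Of 364 repeats of the 32 uncalled loci, 1 was called (AT1G66760) and 29 turned in sign, in 12 loci with changes of at most 0.19; none of these values was called and the cause was not tested. With repeated quantile normalization AT1G47530 was at -0.0047 and AT1G73700 at 0.0417. With the 25S covariate AT5G65380 was at -0.0377, AT1G47530 at -0.0698, AT1G33110 at 0.0121 and AT3G03620 at 0.0302. With actin2-5 array 2 only, AT1G33110 was at 0.0233, AT1G47530 at -0.05, AT3G03620 at 0.0233, AT5G49130 at 0.05 and AT5G65380 at -0.0233. Leaving out 1 array gave -0.0733 to 0.2567 for AT1G15180, -0.0333 to 0.3517 for AT1G33080, -0.09 to 0.08 for AT1G47530, -0.185 to 0.02 for AT1G61890, -0.1 to 0.0483 for AT1G73700, -0.3333 to 0.0367 for AT2G04050, -0.1067 to 0.0383 for AT3G03620, -0.0383 to 0.0767 for AT4G00350, -0.0417 to 0.0583 for AT4G23030, -0.13 to 0.045 for AT5G49130 and -0.0533 to 0.1217 for AT5G65380.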
